A study of Homo sapiens with 12 samples.

Results

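The zinc transporters described here are 10 genes of the count table, 6 of the SLC39 family (SLC39A10, SLC39A6, SLC39A7, SLC39A8, SLC39A9 and SLC39A14) and 4 of the SLC30 family (SLC30A1, SLC30A5, SLC30A7 and SLC30A9), out of 25370 genes counted. The list was chosen by symbol around a measured value, the level of SLC39A10 in the combined treatment, which was selected on because it was low there. The values of all 10 genes under the combination are therefore a description with no test. The question was whether other importers or exporters shared that fall.

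RNA sequencing was done on T47D, an established human breast cancer cell line of luminal type that carries the estrogen receptor. There were 12 libraries in 4 groups of 3, lettered a, b and c: vehicle; anastrozole, an aromatase inhibitor, at 10 nM; estradiol (E2) at 0.1 nM; and both agents together at those same doses, called the combination. All groups had 48 h in charcoal-stripped serum and then 24 h without serum; the sample labels give 12 h of treatment and the study's methods 24 h. The study's methods speak of independent experiments for gene expression data in general, but no source used here ties the letters of these libraries to them. If the letters do not mark separate cultures, p-values measure only the spread between these libraries, which may then be technical. All groups come from 1 cell line.

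Zinc enters the cytosol through SLC39 proteins, also called ZIPs, either across the plasma membrane or out of secretory compartments. SLC30 proteins, the ZnTs, move zinc the other way, out of the cell or into organelles. When cytosolic zinc rises, the transcription factor MTF1 binds metal response elements in promoters such as those of the metallothioneins, which bind zinc, and of SLC30A1. SLC39A6, also known as LIV-1, is a zinc importer long known as an estrogen-regulated gene of breast cancer, and its protein forms a complex with that of SLC39A10.

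Promoter windows of 300 bases, from 250 before to 50 after a start site, were taken from RefSeq (GRCh38.p14) for SLC39A10, SLC30A1 and MT2A, on which the results turn, so that the metal response element core could be shown in them. The core was searched as TGCACNC and TGCGCNC on both strands, and matches are in capitals in the sequences, each written 5′ to 3′ on the strand of its gene.
SLC39A10, chr2:195656976-195657275, plus strand: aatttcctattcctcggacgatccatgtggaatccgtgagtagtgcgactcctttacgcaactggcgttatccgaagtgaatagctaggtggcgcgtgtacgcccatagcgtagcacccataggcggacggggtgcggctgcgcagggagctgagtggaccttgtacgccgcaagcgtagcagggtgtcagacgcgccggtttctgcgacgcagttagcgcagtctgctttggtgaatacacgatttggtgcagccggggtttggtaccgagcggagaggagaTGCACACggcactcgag
SLC30A1, chr1:211579112-211579411, minus strand: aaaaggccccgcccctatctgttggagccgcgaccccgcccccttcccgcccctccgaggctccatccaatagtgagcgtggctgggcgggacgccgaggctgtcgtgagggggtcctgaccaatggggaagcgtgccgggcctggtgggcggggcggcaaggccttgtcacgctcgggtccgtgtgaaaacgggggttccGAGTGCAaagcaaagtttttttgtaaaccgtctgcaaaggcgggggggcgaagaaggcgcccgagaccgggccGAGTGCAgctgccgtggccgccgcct
MT2A, chr16:56608334-56608633, plus strand: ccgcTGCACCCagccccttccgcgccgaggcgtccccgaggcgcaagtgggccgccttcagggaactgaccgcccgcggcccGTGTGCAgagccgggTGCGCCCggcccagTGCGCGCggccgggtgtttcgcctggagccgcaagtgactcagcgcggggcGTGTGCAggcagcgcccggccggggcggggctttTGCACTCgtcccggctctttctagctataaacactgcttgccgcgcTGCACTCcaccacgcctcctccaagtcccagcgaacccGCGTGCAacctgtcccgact

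The SLC39A10 window held 1 match, the SLC30A1 window 2 and the window of the metallothionein gene MT2A 8. The window of MT1X, a metallothionein gene of low level, held 4. A second SLC39A10 window, at chr2:195656708-195657007, held 0. RefSeq windows of 9 of the 10 transporters were searched, 13 windows in all. SLC39A14 was left out of the search, so the counts do not cover it. Of the 13 windows 4 held a match, the others being 1 of SLC39A6 and 1 of SLC39A8. Of all 35116 windows, 29.6% held at least 1 match, 8.6% at least 2 and 0.162% at least 5, so a single match is common. The palindrome of the estrogen response element, GGTCANNNTGACC, was in 0 of the 13 windows and in 0.057% of all windows. A match is a run of letters, not a measured binding site.

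SLC39A10, an importer of the cell surface, was lower in the combination, at 0.546 times its level in vehicle. Among the other importers of the 6 SLC39 genes described here, the largest log2 difference between the combination and another group was 0.14 (SLC39A8, against vehicle, upward). Importers outside these 6, such as SLC39A1, are described further on. The SLC39A10 gene lies at chr2:196440701-196602426 on the plus strand (GRCh37, ENSG00000196950). In CPM, read counts scaled to a common library size with TMM factors, vehicle libraries a, b and c held 66.97, 71.9 and 69.1. Anastrozole libraries held 65.3, 58.0 and 56.1, and E2 libraries held 72.6, 70.9 and 73.4. Combination libraries held 35.5, 41.6 and 36.7. Every combination library lay below the other 9, every anastrozole library lay below every vehicle and E2 library, and vehicle and E2 libraries overlapped.

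Group means of SLC39A10 were 69.3 ± 2.49 CPM in vehicle, 59.8 ± 4.84 with anastrozole, 72.3 ± 1.27 with E2 and 37.9 ± 3.24 in the combination (SD, n = 3 each). The log2 fold change of the combination was -0.87 (SE 0.05) against vehicle, -0.93 (SE 0.05) against E2 and -0.66 (SE 0.07) against anastrozole, comparisons that share the combination libraries. The interaction term, the change in the combination beyond the sum of the 2 single changes in log2, was -0.72 (SE 0.08). Among 11037 genes with a mean of at least 3 log2 CPM, SLC39A10 was the lowest in all 4. The next lowest were -0.65 against vehicle (IFIT1), -0.50 against E2 (ERVV-2), -0.54 against anastrozole (RHBDL3) and -0.71 in the interaction (RHBDL3).

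**Figure D1:**
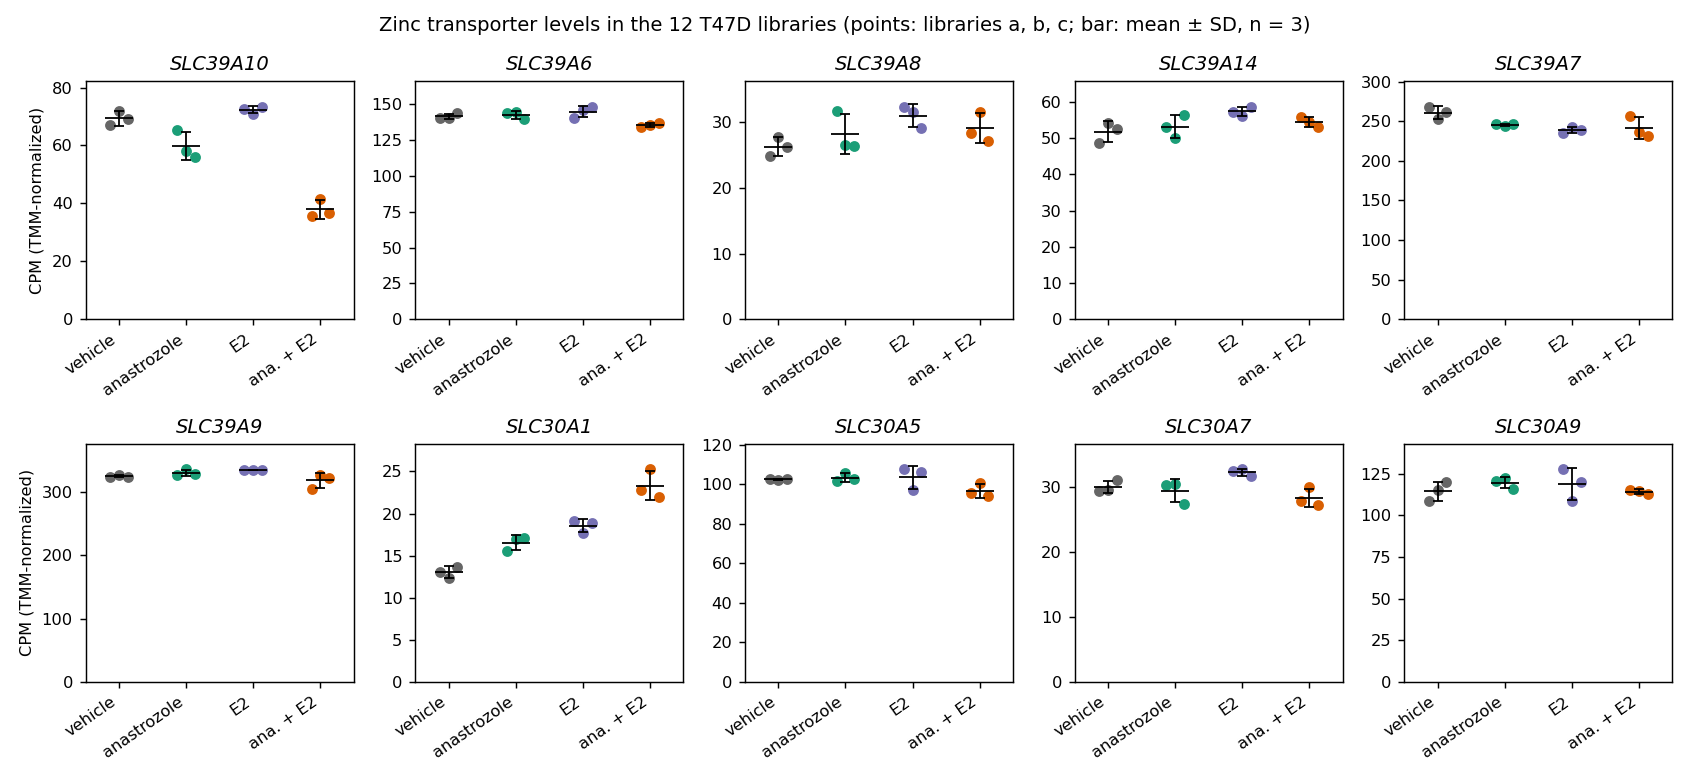
CPM of each of the 10 zinc transporters in each library (points), by group, with the group mean and SD (bars, n = 3) on axes that start at 0. SLC39A10 is at 35.5 to 41.6 in the combination against 66.97 to 71.9 in vehicle, SLC30A1 is lowest in vehicle and highest in the combination, and the other 8 stay within narrow ranges.

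The comparisons between the single treatments and vehicle are not those the list was chosen on, though they share vehicle and single-treatment libraries with them. They were tested by the quasi-likelihood F test of edgeR, adjusted over all 21132 genes tested by the method of Benjamini and Hochberg. Anastrozole alone lowered SLC39A10 by a log2 fold change of -0.21 (SE 0.06, adjusted p = 0.026). This call was lost without any of 4 libraries, with adjusted p = 0.13 without vehicle b, 0.15 without vehicle c, 0.19 without anastrozole b and 0.081 without anastrozole c. It was also lost with a filter on low counts, with DESeq2 and with limma-voom, at adjusted p = 0.062, 0.11 and 0.20. With a GC offset the log2 fold change was -0.27 (edgeR adjusted p = 6.8e-05). E2 alone gave SLC39A10 a log2 fold change of 0.06 (SE 0.05, adjusted p = 0.53), or -0.02 with a GC offset. Set against each other, anastrozole gave a lower level than E2, with a log2 fold change of -0.26 (SE 0.06, adjusted p = 0.00085), lost only with limma-voom (adjusted p = 0.14) among the alternatives run.

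Over the 10 transporters, anastrozole changed 1 (SLC39A10, lowered), where 3.67% of all genes tested were called. That share rests on 776 genes, a number that ranged from 15 with limma-voom to 1651 without anastrozole c, and was 191 without vehicle c. E2 raised 2 (SLC39A8 and SLC30A1) and lowered 1 (SLC39A7), against 12.0% of all genes. Between anastrozole and E2, 1 of 10 differed (SLC39A10), against 1.33% of all genes. Anastrozole and E2 were compared with the same vehicle libraries. The median log2 fold change of the 10 was 0.02 with anastrozole and 0.05 with E2, beside 0.00 over all genes in both.

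SLC39A6, the partner of SLC39A10, had no fall of like size. Its vehicle libraries held 140.6, 140.5 and 143.7 CPM and its combination libraries 134.2, 135.9 and 136.7. The groups did not overlap, yet the log2 fold change was -0.06 (SE 0.04). Combination libraries also lay below every anastrozole and E2 library, at -0.08 (SE 0.05) and -0.10 (SE 0.04). With E2 alone the log2 fold change of SLC39A6 was 0.03 (SE 0.04, edgeR adjusted p = 0.66), and with anastrozole alone 0.01 (SE 0.05, adjusted p = 0.99).

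Within each library, the ratio of SLC39A10 counts to SLC39A6 counts needs no scaling between libraries. It was 0.490 ± 0.0195 in vehicle, 0.419 ± 0.0297 with anastrozole, 0.50 ± 0.0155 with E2 and 0.280 ± 0.0229 in the combination (SD, n = 3). The combination libraries gave 0.264, 0.306 and 0.269, below the lowest of the others, 0.401 in anastrozole b.

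SLC39A8 and SLC39A14 are surface importers that also carry iron, manganese or cadmium. SLC39A8 held 24.9, 27.8 and 26.2 CPM in vehicle and 32.4, 31.6 and 29.1 with E2, which do not overlap. E2 raised it by a log2 fold change of 0.24 (SE 0.07, edgeR adjusted p = 0.013). The call was lost with DESeq2, limma-voom and a GC offset (adjusted p = 0.086, 0.063 and 0.078), and without vehicle a, vehicle c, E2 a or E2 b (0.10, 0.052, 0.078 and 0.074). In the combination SLC39A8 stood at 29.1 ± 2.28 CPM (SD, n = 3), a log2 fold change of 0.14 (SE 0.07) from vehicle. SLC39A14 gave a log2 fold change of 0.15 with E2 (SE 0.05, edgeR adjusted p = 0.0548) and 0.07 (SE 0.05) in the combination. The E2 value passed the threshold with a filter on low counts, a GC offset and without vehicle b (adjusted p = 0.049, 0.047 and 0.020).

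SLC39A7 and SLC39A9 release zinc from the endoplasmic reticulum and Golgi into the cytosol. SLC39A7 (chr6:33168082-33172216, plus strand, GRCh37) held 268.7, 253.1 and 261.7 CPM in vehicle and 235.0, 243.2 and 239.4 with E2, with no overlap. E2 lowered it by a log2 fold change of -0.13 (SE 0.03, edgeR adjusted p = 0.0043), a call lost with a GC offset (adjusted p = 0.13). Its exons overlap those of RXRB on the other strand over 9.02% of their bases, and no source used here gives the strand setting of the counting. In the combination SLC39A7 held 256.9, 237.1 and 230.9 CPM, a log2 fold change of -0.11 (SE 0.04) from vehicle and 0.02 (SE 0.03) from E2. SLC39A9 stayed between 305.8 and 336.5 CPM over the 12 libraries, with 0.967% of its exon bases shared with ERH on the other strand.

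Among the exporters, SLC30A1 was the 1 that passed the test with E2, upward. SLC30A1 is the main exporter of zinc across the plasma membrane, and its gene lies at chr1:211744910-211752503 on the minus strand (GRCh37). Vehicle libraries held 13.1, 12.3 and 13.7 CPM, and anastrozole libraries 15.6, 17.0 and 17.1. E2 libraries held 19.1, 17.7 and 18.9, and combination libraries 22.8, 25.3 and 21.9. No 2 groups overlapped, and the order was vehicle, anastrozole, E2, combination.

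E2 raised SLC30A1 by a log2 fold change of 0.51 (SE 0.10, edgeR adjusted p = 1.9e-05), a 1.42-fold rise that kept its call under every alternative run. Among the 11037 genes with a mean of at least 3 log2 CPM, 19 had a higher log2 fold change with E2. Anastrozole gave a log2 fold change of 0.34 (SE 0.11), which missed the threshold narrowly (adjusted p = 0.0504) and passed it with scaling by library size alone (0.048), with all 12 libraries in the fit (0.021) and with a replicate block (0.048). Between anastrozole and E2 the log2 fold change was -0.16 (SE 0.10, adjusted p = 0.70), so the order of those 2 groups was not set beyond the test's threshold.

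In the combination SLC30A1 was higher by a log2 fold change of 0.84 (SE 0.09) than in vehicle, 0.33 (SE 0.08) than with E2 and 0.50 (SE 0.09) than with anastrozole. Against vehicle, 2 of the 11037 genes, MT2A and TNFAIP3, had a higher value. Its interaction term was -0.01 (SE 0.13), smaller than its error, and 0.12 with a GC offset, whereas the term of SLC39A10 was -0.72. The ratio of SLC30A1 counts to SLC39A10 counts within a library was 0.188 ± 0.0150 in vehicle, 0.279 ± 0.0352 with anastrozole, 0.256 ± 0.00702 with E2 and 0.615 ± 0.0236 in the combination (SD, n = 3).

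**Figure D2:**
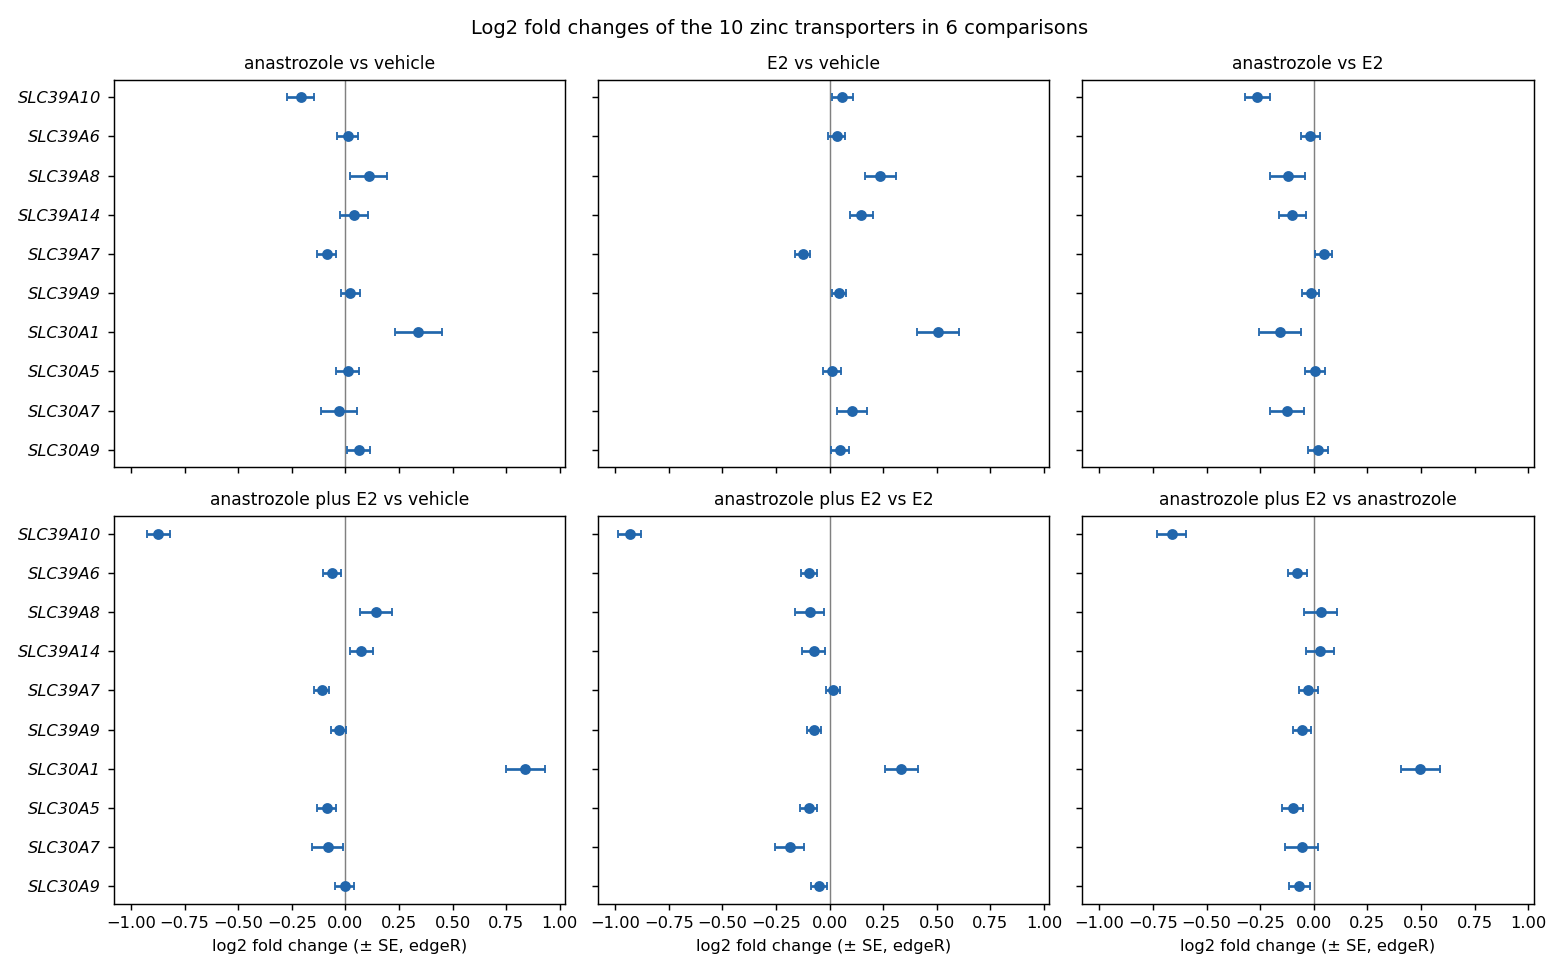
Log2 fold change (points) and SE (bars) of each transporter in the 6 comparisons between groups. SLC39A10 at -0.87 and SLC30A1 at 0.84 stand apart in the comparison of the combination with vehicle, where the other 8 lie between -0.11 and 0.14.

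SLC30A5 and SLC30A7 load zinc into the secretory pathway, and SLC30A9 is a transporter of mitochondria. SLC30A5 stayed between 94.0 and 107.7 CPM, SLC30A7 between 27.2 and 32.7 and SLC30A9 between 108.3 and 127.6. None of the 3 passed the edgeR test with anastrozole or E2 alone, with adjusted p from 0.39 to 1, and 0 had an unadjusted p under 0.05 or a call by DESeq2 or limma-voom. SLC30A7 was lower in the combination (27.9, 29.9 and 27.2 CPM) than with E2 (32.4, 32.7 and 31.7), with no overlap and a log2 fold change of -0.19 (SE 0.07). With a GC offset this was -0.08, and its exons, at 36.3% GC, have the lowest GC content of the 10. SLC30A5 in the combination lay below every vehicle and anastrozole library, at log2 fold changes of -0.09 (SE 0.04) and -0.10 (SE 0.05), and overlapped E2. SLC30A9 in the combination lay below every anastrozole library, at -0.07 (SE 0.05), and overlapped vehicle and E2.

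By the same threshold, and as a description only, 3 of the 10 were past it in the combination against vehicle (SLC39A10 and SLC39A7 lower, SLC30A1 higher), where 5.04% of all genes were called. It was 2 of 10 against E2 and 2 of 10 against anastrozole, SLC39A10 and SLC30A1 in both, beside 6.74% and 2.90% of all genes. In the interaction it was SLC39A10, 1 of 10, beside 10.9% of all genes. With a GC offset the number of all genes called fell from 1424 to 186 against E2 and from 2295 to 556 in the interaction. Against anastrozole it moved from 612 to 234 without combination c and to 1706 without anastrozole c. Nothing is read from these counts, since the combination chose the genes.

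**Figure D3:**
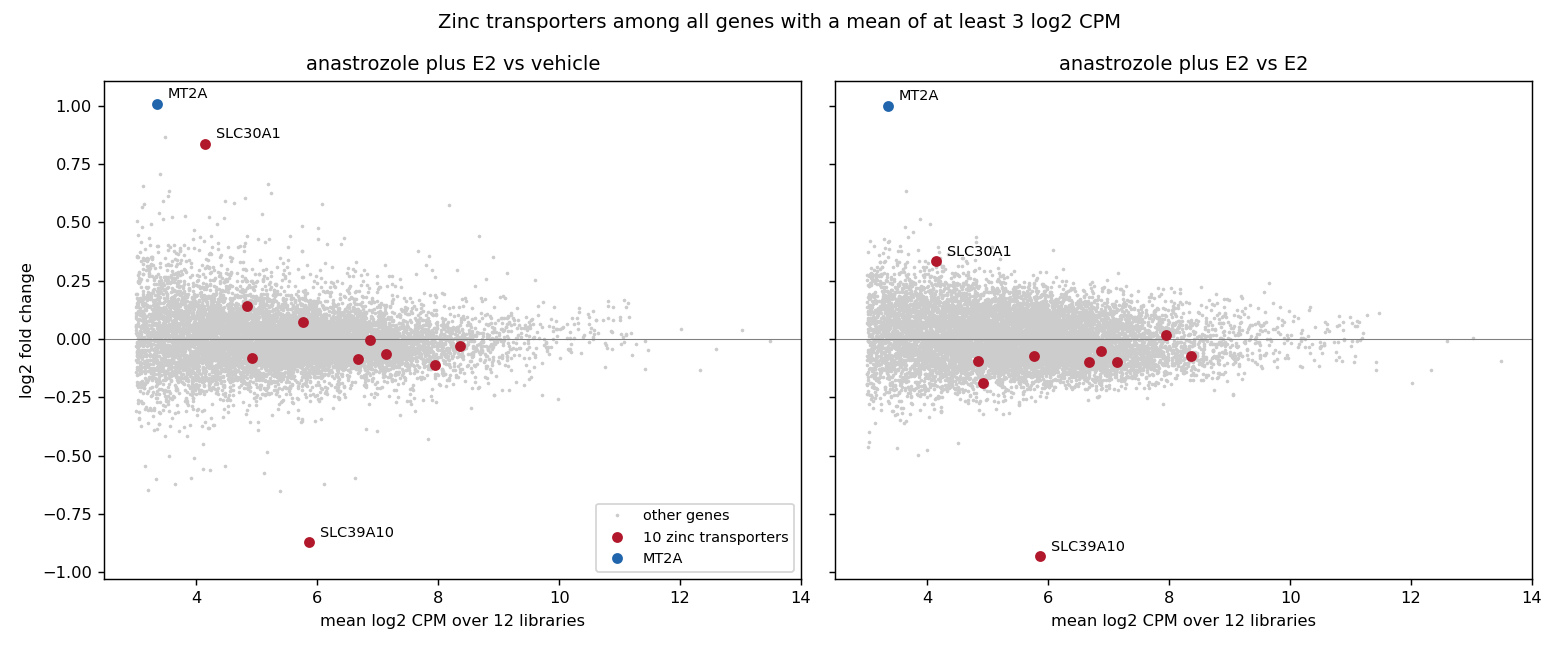
Log2 fold change of the combination against vehicle (left) and against E2 (right) by mean log2 CPM, for 11037 genes (grey), the 10 zinc transporters (red) and MT2A (blue). SLC39A10 is the lowest gene in both panels and MT2A the highest, at 1.01 and 1.0.

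Metallothionein genes and MTF1, which did not choose the transporters, were read as well, while zinc itself was not measured. These genes too were listed with earlier results of these data known. MT2A, the metallothionein gene with the most reads here, held 8.25, 6.92 and 9.18 CPM in vehicle. Combination libraries held 16.7, 15.3 and 16.9, all above the other 9, whose highest was 9.77. MT2A rose in the combination by a log2 fold change of 1.01 against vehicle (SE 0.11, edgeR adjusted p = 3.0e-18), 1.0 against E2 (SE 0.10, adjusted p = 6.5e-18) and 0.78 against anastrozole (SE 0.11, adjusted p = 3.2e-09). DESeq2's own filter gave MT2A no adjusted p against E2 or anastrozole, and the other alternatives kept the calls. The single treatments gave 0.23 with anastrozole (SE 0.13, adjusted p = 0.43) and 0.01 with E2 (SE 0.13, adjusted p = 1).

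The interaction term of MT2A was 0.77 (SE 0.17, adjusted p = 0.00026), so its rise in the combination exceeded the sum of the single changes in log2. Of the 13 genes of the metallothionein and MTF1 list, 7 had any count and 4 had over 3 counts in every library. MT1X gave a log2 fold change of 1.11 in the combination against vehicle (SE 0.38, adjusted p = 0.066), from levels of 0.456 to 1.48 CPM. MTF1 itself stayed between 30.9 and 38.0 CPM, with a log2 fold change of 0.08 (SE 0.07, adjusted p = 0.65) in the combination. MT2A was the 1 gene of this list past the threshold against vehicle, where 5.04% of all genes were called, and MT1X passed as well without vehicle c (adjusted p = 0.045).

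**Figure D4:**
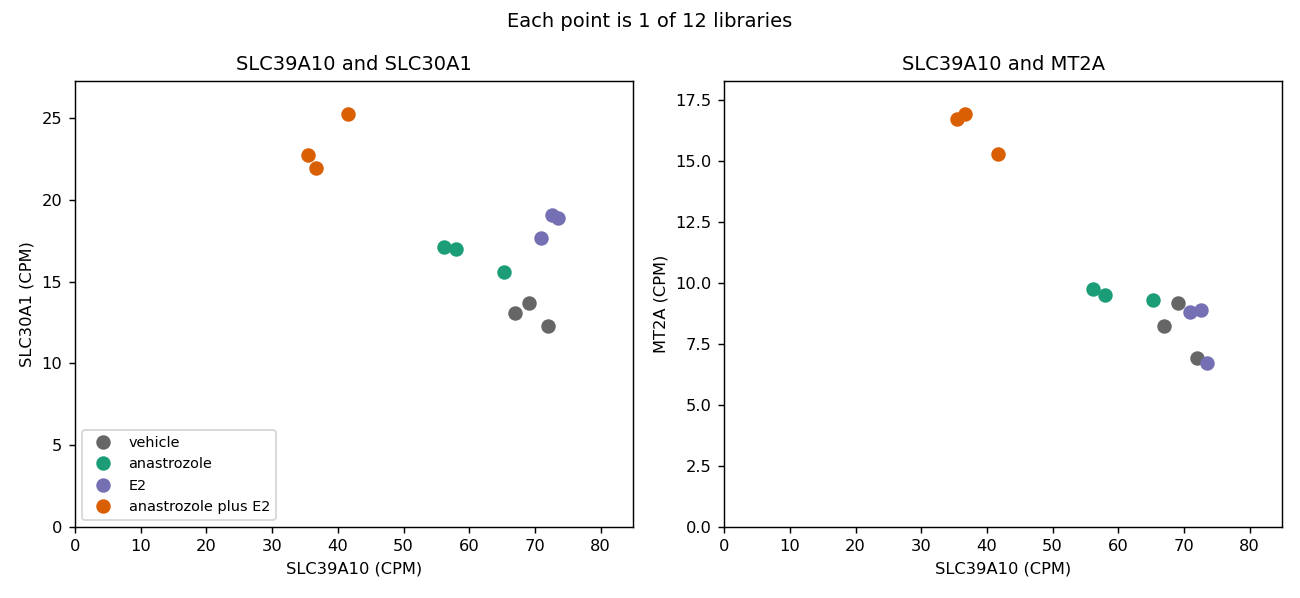
CPM of SLC30A1 (left) and MT2A (right) against CPM of SLC39A10, 1 point for each of the 12 libraries, coloured by group. The combination libraries are alone at the upper left in both panels, and the E2 libraries have high SLC30A1 (17.7 to 19.1) without low SLC39A10.

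A further 15 genes were listed as other zinc transporters, 14 of them with counts. With anastrozole 1 of the 14 was called, with E2 3 and in the combination against vehicle 1, all lowered, beside 3.67%, 12.0% and 5.04% of all genes. Over the alternatives run these counts ranged from 0 to 3 with anastrozole and with E2, and stayed at 1 in the combination. The median log2 fold change of the 10 with over 3 counts in every library was 0.00, -0.11 and -0.07. SLC39A1, a surface importer, held 269.8, 261.9 and 266.6 CPM in vehicle and 236.3, 241.4 and 234.1 in the combination. It fell by a log2 fold change of -0.17 there (SE 0.04, edgeR adjusted p = 0.00038) and -0.13 with E2 (SE 0.03, adjusted p = 0.0035), the latter lost with a GC offset (-0.04, adjusted p = 0.56). Of its exon bases, 8.26% overlap CREB3L4 on the other strand.

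SLC39A4, the importer of dietary zinc, was lowered by anastrozole with a log2 fold change of -0.31 (SE 0.09, edgeR adjusted p = 0.035) and by E2 with -0.24 (SE 0.08, adjusted p = 0.033). SLC39A13, a secretory-pathway importer, was lowered by E2 with -0.20 (SE 0.06, adjusted p = 0.0053). With a GC offset these calls were lost, at adjusted p = 0.24, 0.42 and 0.47. Leaving out single libraries also lost them, for SLC39A4 with anastrozole up to adjusted p = 0.44 (without anastrozole a), for SLC39A4 with E2 up to 0.17 and for SLC39A13 up to 0.085 (both without vehicle a).

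Of 6 partners and regulators of the transporters (STAT3, SNAI1, NCAM1, PRNP, CSNK2A1 and CSNK2A2), 0 passed the edgeR test with anastrozole (3 at an unadjusted p under 0.05, and 0 by DESeq2 or limma-voom), where 3.67% of all genes did. E2 raised 2, where 12.0% of all genes were called. These were SNAI1, a repressor of E-cadherin, with a log2 fold change of 0.73 (SE 0.26, adjusted p = 0.0474), and PRNP, the prion protein gene, with 0.15 (SE 0.05, adjusted p = 0.0498). Both calls sat at the threshold and were lost under 8 and 12 alternatives, up to adjusted p = 0.26 and 0.20 when 1 library was left out (E2 b and E2 a). STAT3, a transcription factor and the member with the most reads, stayed between 219.7 and 232.4 CPM. In the combination against vehicle 0 of the 6 passed (1 at an unadjusted p under 0.05, and 0 by DESeq2 or limma-voom), beside 5.04% of all genes.

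Compared per kilobase of exon in vehicle, so that genes can be set side by side, SLC39A7 was the most abundant at 65.2 CPM per kb, followed by SLC39A9 at 45.6 and SLC39A6 at 38.4. SLC30A5 stood at 18.9, SLC30A9 at 15.9, SLC39A10 at 10.0 and SLC39A14 at 7.49. The lowest were SLC30A7 at 3.49, SLC39A8 at 3.10 and SLC30A1 at 2.21. SLC39A10 thus ranked sixth of the 10 and SLC30A1 last.

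The genes whose log2 CPM followed SLC39A10 most closely over the 12 libraries were SC5D (Pearson r = 0.963), SLC38A2 (0.951), DNAJC13 (0.920), GAPVD1 (0.918) and CAB39L (0.916), of 11037 compared. SC5D encodes a late enzyme of cholesterol synthesis and SLC38A2 an amino acid transporter. By Spearman's rho the first 5 shared 2 genes with these, SC5D and GAPVD1. The 12 libraries share group structure, so these values describe the likeness only.

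The adjoining gene had no change of like size. DNAH7, a dynein chain gene on the other strand that lies tail to tail with SLC39A10, their ends touching, held 3.70 ± 0.0892 CPM in vehicle and 3.85 ± 0.651 in the combination (SD, n = 3). Its log2 fold change was 0.05 (SE 0.18, edgeR adjusted p = 0.98). Beyond it, STK17B, a kinase gene, gave 0.18 in the combination (SE 0.11, adjusted p = 0.50). With E2 it gave 0.32 (SE 0.12, adjusted p = 0.049), a call lost under most alternatives, up to 0.26 with a GC offset and 0.22 without vehicle c. Of the other neighbours on the chromosome, HECW2 and SDPR had group means of at most 0.679 CPM, and TMEFF2 and PCGEM1 were not tested.

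Log2 fold changes went with GC content across genes in several comparisons. Over genes, Spearman's rho with exon GC was -0.53 for anastrozole and -0.55 for E2 against vehicle, 0.68 for the combination against E2, 0.57 against anastrozole and 0.71 for the interaction, but -0.03 for the combination against vehicle. SLC39A10 exons have 39.4% GC and SLC30A1 exons 40.7%. With a GC offset the log2 fold change of SLC39A10 was -0.87 in the combination against vehicle and -0.85 against E2, and its interaction term was -0.58 in place of -0.72. The log2 fold change of SLC30A1 with E2 was 0.43 with a GC offset (edgeR adjusted p = 0.00046).

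**Figure D5:**
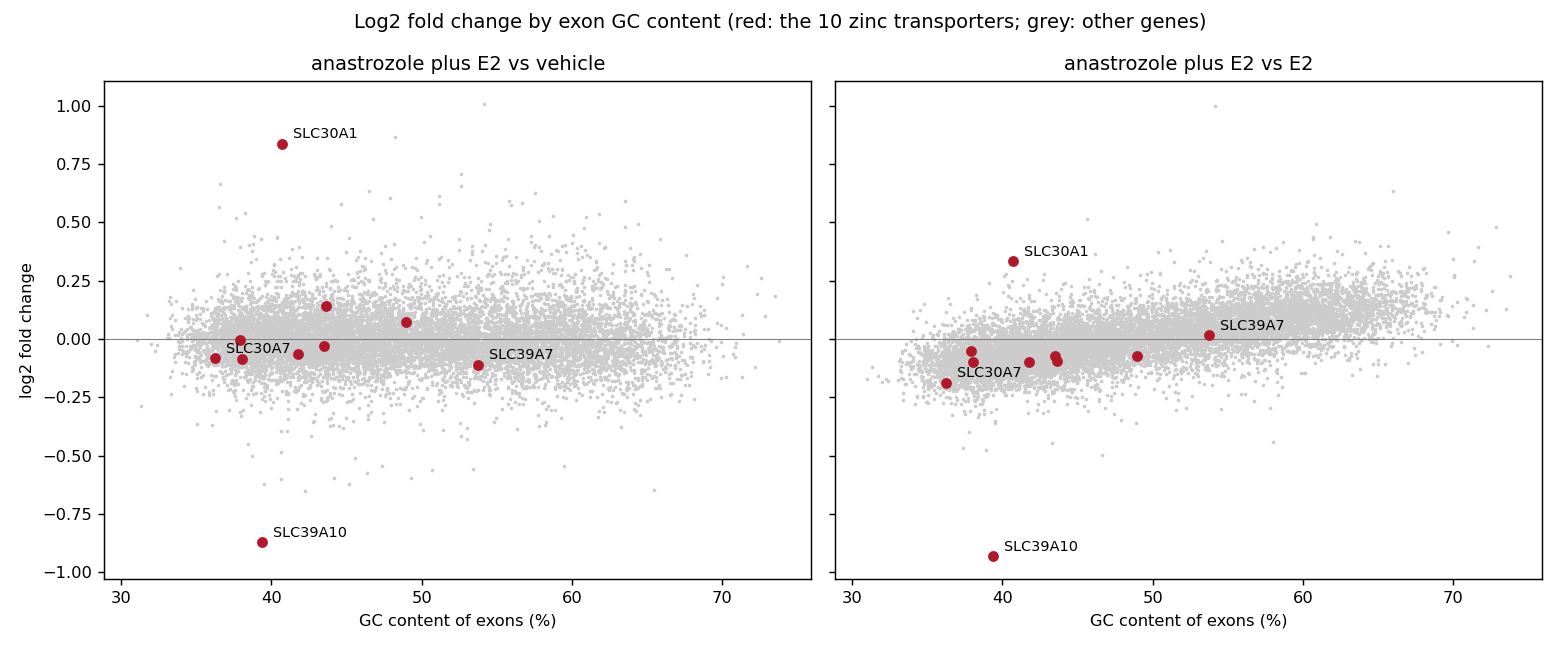
Log2 fold change of the combination against vehicle (left, rho = -0.03) and against E2 (right, rho = 0.68) by exon GC content, for all genes with a mean of at least 3 log2 CPM (grey) and the 10 zinc transporters (red). SLC39A10 lies far below, and SLC30A1 above, the genes of like GC content in both panels.

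Library totals were 9914253 to 17009776 reads on genes (median 13538621), so that 3 counts correspond to 0.177 to 0.303 CPM, and all 10 transporters lay above this in every library. Luminal markers were high (KRT8 2259 to 2528 CPM, GATA3 615 to 695 CPM), and the 7 of them summed to 7120 to 7270 CPM in vehicle, 6680 to 7000 with anastrozole, 7040 to 7090 with E2 and 6950 to 7140 in the combination. By edgeR, E2 lowered 3 of the 7, ESR1 (-0.14, adjusted p = 0.0038), FOXA1 (-0.14, adjusted p = 0.00033) and KRT8 (-0.10, adjusted p = 0.0034, lost with a GC offset at 0.59), beside 12.0% of all genes. The KRT8 call with E2 was also lost without vehicle c (0.059) and without E2 c (0.082). In the combination KRT8 lay below vehicle in every library, at a log2 fold change of -0.07 (adjusted p = 0.19, and 0.0067 with a replicate block). Of 8 markers of other cell types, summed at 85.9 to 106 CPM, COL1A1 made up nearly all (80.04 to 99.94 CPM) while COL1A2, PTPRC, CD3E and PECAM1 were at 0 to 0.233 CPM and CD68 was at 3.12 to 7.14 CPM. That sum was 95.2 to 100.2 CPM in vehicle, 92.3 to 99.04 with anastrozole, 85.87 to 96.23 with E2 and 100.01 to 105.87 in the combination, where it did not overlap anastrozole or E2. By edgeR, COL1A1 was higher in the combination than with E2, at a log2 difference of 0.17 (adjusted p = 0.0017, lost with limma-voom, a GC offset or without E2 a, at 0.11, 0.54 and 0.12). CD68, a macrophage marker, was raised by anastrozole by 0.71 (adjusted p = 0.0051) and by E2 by 0.55 (adjusted p = 0.015). In the combination CD68 held 4.94 to 5.79 CPM against 3.12 to 4.36 in vehicle, a log2 fold change of 0.50 (adjusted p = 0.059), which passed the threshold with a replicate block (0.043), with a GC offset (0.046) and without vehicle c (0.037). The CD68 calls of the single treatments were lost with limma-voom (0.15 and 0.064) and without single libraries, at up to 0.20 (without anastrozole a) and 0.11 (without vehicle b). The part of these markers in the results was not tested.

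Of 5 estrogen response genes (GREB1, PGR, TFF1, PDZK1 and CXCL12), E2 raised 1, GREB1, where 12.0% of all genes were called. Anastrozole lowered 3, GREB1, PGR and CXCL12, where 3.67% of all genes were. GREB1, an estrogen-induced gene, was raised by E2 by a log2 fold change of 0.13 (SE 0.03, edgeR adjusted p = 0.00073) and lowered by anastrozole by -0.14 (SE 0.04, adjusted p = 0.029). The latter call was lost with limma-voom (0.12) and without vehicle a, b or c or anastrozole a or b (0.053, 0.13, 0.25, 0.11 and 0.24). PGR, the progesterone receptor gene, was lowered by anastrozole by -0.13 (SE 0.04, adjusted p = 0.026) and CXCL12, a chemokine gene, by -0.14 (SE 0.04, adjusted p = 0.0466). Both calls were lost with a filter on low counts, DESeq2 and limma-voom, and without single libraries, at up to 0.44 for PGR (without vehicle b) and 0.29 for CXCL12 (without vehicle c). The CXCL12 call was also lost with a replicate block, at an adjusted p of 0.05 after rounding. Between anastrozole and E2 the same 3 genes were lower with anastrozole, where 1.33% of all genes were called. In the combination GREB1 was raised against vehicle by 0.18 (SE 0.03, adjusted p = 4.3e-06), 1 of the 5 beside 5.04% of all genes. Against anastrozole 3 of the 5 were raised, beside 2.90% of all genes, GREB1 by 0.32 (SE 0.04, adjusted p = 1.6e-11), CXCL12 by 0.21 (SE 0.04, adjusted p = 0.00018) and PDZK1 by 0.23 (SE 0.07, adjusted p = 0.0482). The PDZK1 call was lost at up to 0.28 (without combination c).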

How the data were processed

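RNA was sequenced from 12 T47D libraries, 3 per group. The authors prepared libraries with NuGEN Encore reagents. Per the submitters' processing notes they used TopHat2 2.0.14, Bowtie2 2.2.6, HTSeq and hg19. HTSeq's version, strand setting and annotation are not given in the sources used here. The deposited values are raw read counts per gene; HTSeq's 5 summary lines were left out, of which reads on no feature were 58.6 to 59.85% of a library.

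The members and gene lists were chosen with earlier results of these data known. Named genes were the members, the genes of the zinc and partner lists past the threshold and the one with the most reads, neighbours of SLC39A10, and the 5 genes most like it; estrogen response and cell type genes served as checks. Genes at 0 in all 12 libraries were removed (4238), leaving 21132. Each comparison was fitted on its 6 libraries, the interaction on 12, with edgeR 4.0.16 (R 4.3.3; quasi-likelihood F test, TMM, two-sided, Benjamini-Hochberg, threshold 0.05), after the script was tested on simulated data. Alternatives used DESeq2 1.42.0, limma 3.58.1, other scalings and filters, GC offsets and left-out libraries. Exon lengths, GC and GRCh37 positions came from GENCODE v44lift37, with 23032 symbols matched. No 2 libraries of a group agreed within counting noise (chi-square per degree of freedom 1.29 to 5.71).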

Additional observations from a re-analysis of the deposited data

Results flagged for a closer look

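Of 46 listed genes outside the 10 transporters, 7 (15.2%) had an interaction term, the difference between the effects of anastrozole with and without E2, past edgeR's threshold, beside 10.9% of all genes tested. The terms, in log2, were 0.49 for SLC39A4 (adjusted p = 0.0019), 0.35 for SLC39A13 (adjusted p = 0.0018), 0.77 for MT2A (adjusted p = 0.00026) and 0.20 for GREB1 (adjusted p = 0.0022). For the cell type markers they were 0.13 for KRT8 (adjusted p = 0.0464), 0.25 for COL1A1 (adjusted p = 0.0039) and -0.76 for CD68 (adjusted p = 0.015). SLC39A4, SLC39A13, GREB1, KRT8 and COL1A1 lost the call with a GC offset. SLC39A4 also lost it without anastrozole a (adjusted p = 0.051), KRT8 without most single libraries (at up to 0.17, without E2 c), COL1A1 without E2 a (0.059) and CD68 without vehicle b or anastrozole a (0.066 and 0.14), and MT2A kept it under all alternatives run. PGR gained the call with a GC offset (0.18, adjusted p = 0.0005). CXCL12 and ESR1 gained it with a GC offset and replicate block (0.046 and 0.049), and SLC39A3, PRNP and FOXA1 under other alternatives. With a GC offset 556 of all genes were called in place of 2295.

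For 2 of the 10 transporters every anastrozole library lay above the vehicle mean and every combination library below the E2 mean in log2 CPM. The effect of anastrozole differed by -0.10 for SLC39A9 and by -0.12 for SLC30A9 between the settings with and without E2. With a GC offset the interaction terms were -0.01 and 0.05. These differences were not tested. No share of all genes with this pattern is given here, so nothing is read from the count of 2. Of the 10 transporters, 9 had an interaction term below 0. Over the 11037 genes ranked, the median term was -0.003, and the term went with exon GC content (Spearman's rho = 0.71). No share of all genes below 0 is given here, so nothing is read from the count of 9 either.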

How the results depend on the processing

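Depth limits genes near 3 counts or under, such as MT1E, MT1M and MT3, and 3 libraries per group from 1 cell line limit the precision of all the rest. SLC39A10 stayed the same in direction under every alternative run in the comparisons of the combination. Its log2 fold change without 1 library ranged from -0.94 to -0.82 against vehicle, -1.0 to -0.89 against E2, -0.73 to -0.59 against anastrozole and -0.79 to -0.65 in the interaction. The interaction of SLC39A10 was -0.58 both with a GC offset and with a GC offset and replicate block. As a ratio to SLC39A6 within a library, an alternative chosen after seeing the data, its change against E2 was -0.84.

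The number of transporters called with anastrozole against vehicle was 1; it was 0 with a filter on low counts, DESeq2 or limma-voom, 2 with library size alone, all 12 libraries or the replicate block, and 0 to 1 without 1 library. With E2 it was 3, 1 with a GC offset and replicate block, and 2 to 4 without 1 library. Between anastrozole and E2 it was 1, and 0 with limma-voom. As a description only, the combination had 2 past the threshold against E2 and against anastrozole, and 1 with the DESeq2 test, whose own filter gave SLC30A1 no adjusted p there. The interaction of KRT8 turned from 0.13 to just under 0, -0.00, with either GC offset. Over all genes the number called was 776 with anastrozole (15 to 1651 over the alternatives), 2537 with E2 (1379 to 2808), 280 between these (70 to 515), 1065 for the combination against vehicle (347 to 1590), 1424 against E2 (186 to 1487), 612 against anastrozole (90 to 1706) and 2295 in the interaction (556 to 3202). The cause of the other changes was not tested.

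Deviations of libraries of the same letter correlated weakly (-0.20 to 0.18), which does not settle whether the letters pair them. For the combination against vehicle the correlations of letters a, b and c were 0.14, 0.07 and 0.03. There the replicate block moved the number of all genes called from 1065 to 1439. With the replicate block the log2 fold change of SLC39A10 was -0.87 in the combination against vehicle and that of SLC30A1 0.51 with E2.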
